A study of Mus musculus with 12 samples.

Results

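Transcripts of the respiratory chain and ATP synthase were examined in mouse gastric organoids that had been kept with one of 3 bacteria or left untreated. Genes were taken by symbol: the nuclear Nduf, Sdh, Uqcr, Cox and Atp5 genes and the mitochondrially encoded mt-Nd, mt-Cytb, mt-Co and mt-Atp genes. Of 109 rows with such a name among 25759 genes, 6 had a mean under 1 TPM (a level relative to all transcripts of a library that corrects for gene length) over the 12 libraries and were left out, and no name was that of a pseudogene. The remaining 103 members comprise 90 nuclear genes, of which 76 encode subunits and 14 encode assembly or associated factors, and 13 genes of the mitochondrial genome. All 103 passed the filter on low counts and were tested, and none had a mean under 1 TPM in any of the 4 groups.

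Gastric organoids are cultures of stomach epithelium that grow as hollow bodies within a matrix. They were set up at their first passage in medium without growth factors or antibiotics. Of the 12 libraries, 3 were treated for 4 h with Fusobacterium nucleatum (an anaerobe of the mouth), 3 with Helicobacter pylori (a stomach pathogen) and 3 with Neisseria subflava (a commensal of the upper airway), and 3 were untreated. The labels give neither a mouse strain nor an age, and no time for the untreated libraries. They also do not say whether the 3 libraries of a group came from separate cultures. The p-values therefore measure the spread between these libraries, which may be technical.

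The respiratory chain is the set of complexes of the inner mitochondrial membrane that pass electrons from NADH and succinate to oxygen and pump protons, and ATP synthase uses the proton gradient to make ATP. Complex I is NADH dehydrogenase, complex II succinate dehydrogenase, complex III cytochrome bc1, complex IV cytochrome c oxidase and complex V ATP synthase. All but complex II combine subunits of both genomes, and the mitochondrial genes are transcribed as long precursors that are cut at the tRNAs between them. In the stomach the acid-secreting parietal cell is known for its dense mitochondria.

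Gastric epithelial markers were present throughout, with 12 of 12 detected and summed levels of 22751 to 23880 TPM in untreated libraries and of 20355 to 22692 TPM in the 9 treated ones, which were all lower. Parietal markers were near 0: the 7 that were measured summed to between 7.27 and 13.5 TPM, Vegfb alone reached 8.60 TPM, and Atp4b, a subunit of the gastric proton pump, had 0 counts in every library. Pancreatic acinar and islet markers summed to between 305 and 420 TPM in the untreated libraries and 209.9 TPM in Helicobacter replicate 1, and to no more than 5.31 TPM in the other 8 libraries. A comparison of Fusobacterium or Neisseria with untreated organoids is thus also one between libraries nearly without and with these transcripts. The Helicobacter libraries were mixed in this respect. The part of these transcripts in the results was not tested. Total counts were 16955155 to 23236260 per library, and replicates differed by more than counting noise. In bulk RNA, fewer cells of a type and less RNA per cell cannot be told apart.

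The mitochondrial genome supplied most of the RNA. Its 13 mRNAs held 83.8 ± 0.97% (SD, n = 3) of all respiratory chain counts in untreated organoids, 83.3 ± 0.43% with Fusobacterium, 83.5 ± 0.60% with Helicobacter and 84.3 ± 0.29% with Neisseria. Single libraries ranged from 82.7% to 84.6%, the untreated libraries spanned nearly that whole range, and each treated group overlapped them. As a share of all counts in a library, the mitochondrial mRNAs made up 4.82 to 5.14% in untreated organoids and 4.50 to 4.69% with Fusobacterium, where the groups did not overlap. With Helicobacter they made up 4.96 to 5.07% and with Neisseria 4.88 to 5.18%, inside or overlapping the untreated range.

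Levels between genes are given in TPM as means over 12 libraries. The mitochondrial mRNAs ran from 2376 for mt-Nd6 to 22320 for mt-Co2, and the nuclear members from 1.73 for Cox7a1 to 1387 for Atp5b, the catalytic beta subunit of ATP synthase. The most abundant nuclear member was Ndufa7 in complex I (292 TPM), Sdhd in complex II (302 TPM), Uqcrh in complex III (671 TPM) and Cox6b1 in complex IV (714 TPM). The 14 assembly and associated factors were far below the subunits, with a median of 15.9 TPM against 179 TPM for the 76 nuclear subunits. The summed level of the nuclear subunits was 19067 ± 485 TPM in untreated organoids, 18471 ± 166 with Fusobacterium, 19217 ± 636 with Helicobacter and 18084 ± 516 with Neisseria. These ranges overlapped between untreated and Helicobacter libraries, and the libraries with Fusobacterium and Neisseria reached up to 18653 and 18664 TPM against a lowest untreated value of 18647 TPM.

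Changes between groups are log2 fold changes with their standard error (±), from edgeR's quasi-likelihood test on the counts, called at a Benjamini-Hochberg adjusted p under 0.05 over 12805 genes. Levels of a gene across libraries are given as scaled CPM, the counts relative to the library total times its TMM factor, which is the scaling of that test. Among the 4 groups 72 of 103 members differed, where 80.8% of all tested genes did. Most changes were small: the largest against untreated organoids, that of Ndufaf4 with Fusobacterium, was -0.80.

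The scaling matters for changes of this size. The TMM factors of the Neisseria libraries were 0.92 to 0.93, against 1.03 to 1.04 in untreated libraries. With library totals alone, the median change of all genes went from -0.02 to -0.18 for Neisseria against untreated organoids, from -0.01 to 0.17 for Fusobacterium against Neisseria and from 0.02 to 0.12 for Helicobacter against Neisseria, and with limma on the authors' TPM values to -0.20, 0.19 and 0.11. Member changes are therefore also set against the median of all genes. By this measure the members' median lay 0.10 below that of all genes with Fusobacterium, 0.11 above it with Helicobacter and 0.13 above it with Neisseria, against untreated organoids. With library totals alone these differences of medians were -0.10, 0.11 and 0.13, and with limma on TPM -0.08, 0.10 and 0.10. A change of scaling moves all genes of a comparison by nearly the same amount. The near-equal differences under TMM and library totals were thus fixed in advance and are no test.

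**Figure D1:**
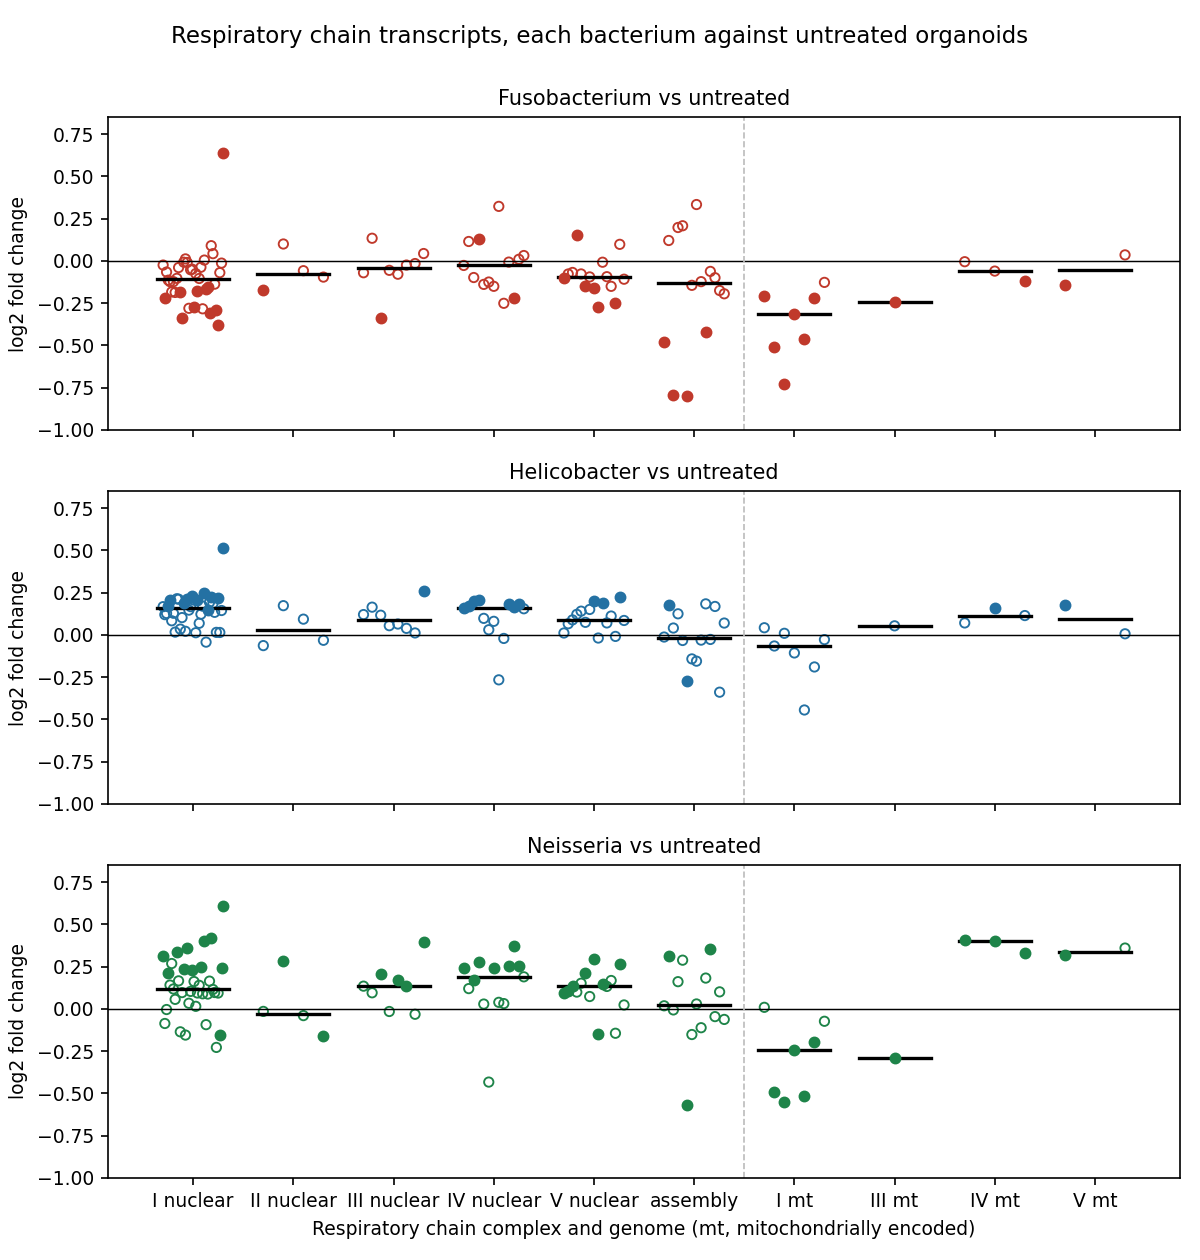
Log2 fold change of each of the 103 members against untreated organoids (vertical axis), by complex and genome (horizontal axis), in a panel for each bacterium. Filled points passed the adjusted p threshold of 0.05, open points did not, and bars are medians: nuclear subunits lie mostly below 0 with Fusobacterium and mostly above 0 with Helicobacter and Neisseria, and mitochondrial complex I and complex IV mRNAs lie apart with Neisseria.

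With Neisseria the mitochondrially encoded mRNAs did not move as a block. The mRNAs of complex IV and of mt-Atp6 rose while most of those of complex I and mt-Cytb fell, although they come from the same genome. With Fusobacterium 12 of the 13 changes were negative, called or not, with a median of -0.21. With Helicobacter 8 were positive and 5 negative. Of the 13, 4 rose and 6 fell with Neisseria, 0 rose and 9 fell with Fusobacterium, and 2 rose and 0 fell with Helicobacter. Of all tested genes 25.4% were higher and 25.5% lower with Neisseria, 32.8% and 32.4% with Fusobacterium, and 10.5% and 8.36% with Helicobacter. The mitochondrial mRNAs are described in the order of the complexes.

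In complex I, mt-Nd2 encodes a subunit of the membrane arm. Its level was 2231, 2226 and 2122 scaled CPM in the untreated libraries, 1508, 1582 and 1525 with Fusobacterium, 2105, 2092 and 2089 with Helicobacter and 1564, 1605 and 1507 with Neisseria. All Fusobacterium and Neisseria libraries were low, with no overlap with the untreated ones, and the Helicobacter libraries lay just under the untreated range. The change was -0.51 ± 0.04 with Fusobacterium (edgeR adjusted p = 3.75e-11), -0.49 ± 0.04 with Neisseria (adjusted p = 1.09e-10) and -0.07 ± 0.04 with Helicobacter (adjusted p = 0.235), where library totals alone gave -0.13 (adjusted p = 0.011).

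The short mRNA of mt-Nd3, another membrane-arm subunit, had 624, 608 and 639 scaled CPM in untreated organoids, 384, 380 and 366 with Fusobacterium, 652, 557 and 673 with Helicobacter and 478, 411 and 388 with Neisseria. It was lower in every Fusobacterium and Neisseria library than in any untreated one, and the Helicobacter libraries lay on both sides of the untreated range. It fell by 0.73 ± 0.08 with Fusobacterium (edgeR adjusted p = 1.76e-06) and by 0.55 ± 0.08 with Neisseria (adjusted p = 4.08e-05), and its change with Helicobacter was 0.01 ± 0.08 (adjusted p = 0.953). In the comparison of the bacteria it was lower with Fusobacterium than with Helicobacter by 0.74 ± 0.08 on the log2 scale (adjusted p = 1.6e-06).

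Of the other complex I mRNAs, mt-Nd4 fell by 0.31 ± 0.04 with Fusobacterium and by 0.24 ± 0.04 with Neisseria, and mt-Nd5 by 0.22 ± 0.06 and 0.20 ± 0.06, though its libraries overlapped the untreated ones and its call with Neisseria was lost without Neisseria replicate 1 or untreated replicate 1 or 2. Their changes with Helicobacter were -0.11 ± 0.04 for mt-Nd4 (adjusted p = 0.0861; -0.17 and called when scaled by library totals) and -0.19 ± 0.06 for mt-Nd5 (adjusted p = 0.0512), which passed under 8 of 22 alternatives. mt-Nd1 fell with Fusobacterium (-0.21 ± 0.04, edgeR adjusted p = 4.52e-05), with 3503 to 3676 scaled CPM against 4022 to 4187 untreated, and its change was 0.01 ± 0.04 with Neisseria and 0.04 ± 0.04 with Helicobacter. Under library totals alone mt-Nd1 was lower by 0.16 with Neisseria (adjusted p = 0.000365). mt-Nd4l fell by 0.46 ± 0.16 with Fusobacterium and by 0.52 ± 0.16 with Neisseria, with wide errors. The first call was lost without Fusobacterium replicate 1 or 3 or untreated replicate 1 or 2, and the second without any 1 of the Neisseria libraries or untreated replicate 1 or 2. Its change with Helicobacter was of like size and did not pass (-0.44 ± 0.16, adjusted p = 0.0983). mt-Nd6, the only one of the 13 on the minus strand, passed in none of the 3 (-0.13 ± 0.12, -0.03 ± 0.12 and -0.07 ± 0.12 with Fusobacterium, Helicobacter and Neisseria).

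mt-Cytb, the mitochondrial subunit of complex III, followed the complex I mRNAs. It had 5041 to 5372 scaled CPM in untreated libraries, 4391 to 4521 with Fusobacterium, 5426 to 5483 with Helicobacter and 4161 to 4382 with Neisseria. The Fusobacterium and Neisseria libraries were below the untreated range and the Helicobacter libraries just above it. It fell by 0.25 ± 0.04 with Fusobacterium (edgeR adjusted p = 3.81e-06) and by 0.29 ± 0.04 with Neisseria (adjusted p = 5.12e-07), with a change of 0.05 ± 0.04 with Helicobacter (adjusted p = 0.341).

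The catalytic core of complex IV behaved otherwise. mt-Co2, which takes up electrons from cytochrome c, had 6207, 6131 and 6207 scaled CPM in untreated libraries, 5923, 5993 and 5869 with Fusobacterium, 6813, 6637 and 7292 with Helicobacter and 8617, 8172 and 7687 with Neisseria. Every Neisseria library was above every other library, and the Helicobacter libraries were above the untreated and Fusobacterium ones. It rose by 0.40 ± 0.04 with Neisseria (edgeR adjusted p = 3e-08) and by 0.16 ± 0.04 with Helicobacter (adjusted p = 0.00854), and its change with Fusobacterium was -0.06 ± 0.04 (adjusted p = 0.215). The Helicobacter rise was 0.06 with limma on TPM and did not pass (adjusted p = 0.0808).

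mt-Co1, which holds the oxygen-reducing site, rose by 0.41 ± 0.04 with Neisseria (18027 to 18939 scaled CPM against 13352 to 14640 untreated, adjusted p = 5.5e-09), and mt-Co3 rose by 0.33 ± 0.05. Under library totals alone the 3 rises were smaller but still called, at 0.24 for mt-Co1, 0.23 for mt-Co2 and 0.16 for mt-Co3. With Fusobacterium the changes were -0.005 ± 0.039 for mt-Co1 and -0.12 ± 0.05 for mt-Co3, a fall that passed (adjusted p = 0.0329) but was lost with DESeq2, without any 1 of the 3 Fusobacterium libraries and without untreated replicate 1 or 3. With Helicobacter they were 0.07 ± 0.04 and 0.11 ± 0.05 and did not pass.

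In complex V, mt-Atp6 encodes the subunit a of the proton channel. It rose by 0.32 ± 0.05 with Neisseria and by 0.18 ± 0.05 with Helicobacter and fell by 0.14 ± 0.05 with Fusobacterium. Its 3 untreated libraries had 4512, 4500 and 4255 scaled CPM and the Neisseria libraries 5880, 5525 and 5123. Under library totals alone the Helicobacter rise was 0.11 and did not pass (adjusted p = 0.0545), nor did it without Helicobacter replicate 3, while that with Neisseria was 0.15 and did. mt-Atp8 did not pass with any bacterium, and its change with Neisseria was 0.36 ± 0.14 (adjusted p = 0.0663).

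mt-Atp8 and mt-Atp6 are read from one mRNA and share 43 bases, at MT:7927-7969 on the plus strand (GRCm38, GENCODE M21), so reads over them cannot be given to one gene alone. The stretch is shown because it limits how far the counts of this pair can be read apart, with the start codon of mt-Atp6 and the stop codon of mt-Atp8 in capitals.
mt-Atp8 and mt-Atp6 overlap: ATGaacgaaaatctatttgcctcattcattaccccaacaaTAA
mt-Nd4l and mt-Nd4 share 7 bases in the same way (MT:10167-10173), and mt-Nd5 and mt-Nd6 overlap on opposite strands. How reads in shared stretches were counted, and whether strand was used, is not given in the sources used here.

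**Figure D2:**
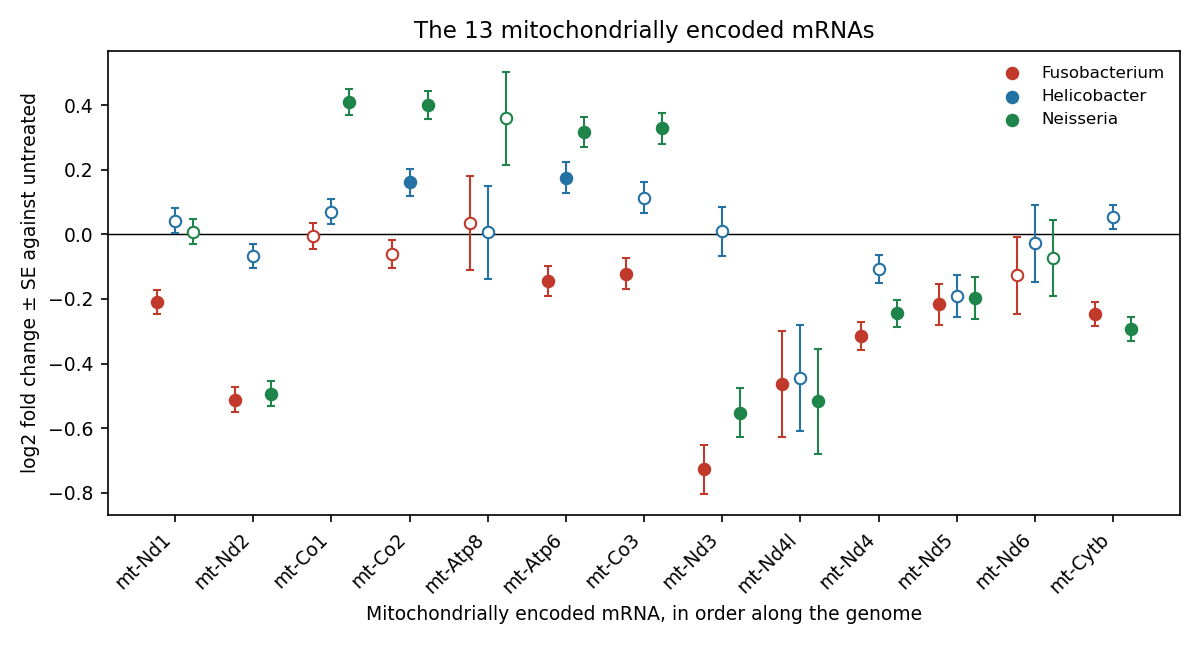
Log2 fold change against untreated organoids (vertical axis, ± SE) of the 13 mitochondrial mRNAs in their order along the genome (horizontal axis). Colours are the bacteria and filled points passed the threshold: the run from mt-Co1 to mt-Co3 lies at 0.32 to 0.41 with Neisseria, and mt-Nd2 and mt-Nd3 lie between -0.49 and -0.73 with Fusobacterium and Neisseria.

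A ratio within a library does not depend on the scaling between libraries. The summed TPM of the mt-Co and mt-Atp mRNAs was divided by that of the mt-Nd mRNAs and mt-Cytb, a split chosen after the values had been seen and therefore not tested. The ratio was 1.68, 1.69 and 1.75 in the untreated libraries, 2.042, 2.003 and 2.033 with Fusobacterium, 1.88, 1.85 and 1.99 with Helicobacter and 2.67, 2.63 and 2.56 with Neisseria. All 9 treated libraries were above the untreated ones, those with Neisseria were highest, and the Fusobacterium and Helicobacter groups were separated by a narrow gap. For 1 gene of each kind, the counts of mt-Co2 to mt-Nd2 stood at 2.75 to 2.92 in untreated libraries, 3.79 to 3.93 with Fusobacterium, 3.17 to 3.49 with Helicobacter and 5.09 to 5.51 with Neisseria.

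The mt-Nd and mt-Cytb sum was 44540 ± 2595 TPM in untreated organoids, 36453 ± 1027 with Fusobacterium, 40474 ± 1506 with Helicobacter and 32489 ± 278 with Neisseria. The mt-Co and mt-Atp sum was 75851 ± 2758 TPM in untreated organoids, 73834 ± 1329 with Fusobacterium, 77097 ± 827 with Helicobacter and 85047 ± 2205 with Neisseria. Only the Neisseria group lay clear of the untreated range in the latter sum.

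**Figure D3:**
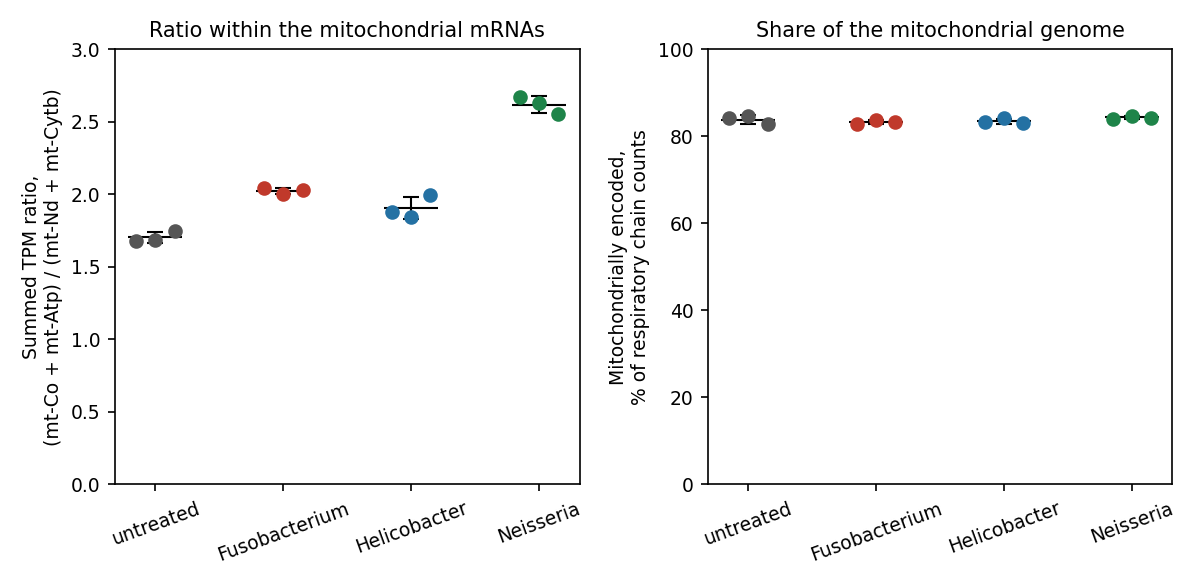
Left, ratio of the summed TPM of mt-Co and mt-Atp mRNAs to that of mt-Nd and mt-Cytb mRNAs (vertical axis, no unit) in each of the 12 libraries by group. Right, percentage of respiratory chain counts from the mitochondrial genome; points are libraries and bars the mean ± SD of 3. The ratio is 1.68 to 1.75 untreated and 2.56 to 2.67 with Neisseria, while the share stays between 82.7% and 84.6%.

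With Fusobacterium, 31 of the 103 members were lower and 3 higher, where 32.4% of all tested genes were lower and 32.8% higher. Leukocyte markers summed to 40.9 to 44.3 TPM in these libraries against 22.5 to 27.0 TPM untreated. Nearly all of this was the 1 gene Cd68, at 21.9 to 43.1 TPM over the 12 libraries. Ptprc, Cd3e and Lyz2 reached no more than 1.02, 0.282 and 1.56 TPM in any library. Parietal markers summed to 12.2 to 13.5 TPM against 7.53 to 9.54 TPM, endothelial markers to 0.749 to 1.21 TPM against 0.288 to 0.538 TPM and erythroid markers to 2.47 to 4.15 TPM against 0.207 to 1.34 TPM. The part of these markers in the result was not tested. The members' share of falls was near that of all genes and their share of rises far under it. The members' median change was -0.10, against 0.00 for all genes. The falls comprised 9 mitochondrial mRNAs, 10 of 36 nuclear complex I subunits, 1 of 4 in complex II, 1 of 8 in complex III, 1 of 13 in complex IV, 5 of 15 in complex V and 4 of the 14 assembly and associated factors. The 3 rises were Ndufv3, Atp5d and Cox6a1, of which Atp5d, a subunit of the ATP synthase stalk, was at 0.15 ± 0.05 and Cox6a1 at 0.13 ± 0.05. Both lost the call without Fusobacterium replicate 2 or untreated replicate 1 or 2, each of which left 1 rise, and Atp5d also without Fusobacterium replicate 1. The rises numbered 8 when untreated replicate 3 was left out and 5 when Helicobacter replicate 2 was. Of the 7 nuclear core subunits of complex I, which carry its electron path, 5 were lower, with a median of -0.17.

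With Helicobacter, 25 members were higher and 1 lower, where 10.5% of all tested genes were higher and 8.36% lower. The rises comprised 11 nuclear complex I subunits, 1 in complex III, 7 in complex IV, 3 in complex V, Cox7a2l and 2 mitochondrial mRNAs. The members' median was 0.11, against 0.00 for all genes. The count of rises rests on single libraries: it was 16 without Helicobacter replicate 1, the library with pancreatic transcripts, 5 without Helicobacter replicate 3, 6 and 7 when untreated replicate 1 or 2 was left out, and 42 with Helicobacter replicate 2 left out. The 1 fall, that of Ndufaf4, became 2 without Fusobacterium replicate 1 or 2, 3 without Helicobacter replicate 2 and 4 without untreated replicate 3. By library totals alone 5 members were higher and 5 lower, with 6.74% and 14.2% of all genes, and limma on TPM had 2 higher and 8 lower, with a members' median of 0.01.

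With Neisseria, 36 members were higher and 10 lower, where 25.4% and 25.5% of all tested genes were higher and lower. Leukocyte markers, again nearly all Cd68, summed to 29.3 to 30.8 TPM in these libraries, above the untreated range of 22.5 to 27.0 TPM. Their part in the result was not tested. Among the 76 nuclear subunits 30 were higher and 3 lower, and the rises comprised 11 of 36 in complex I, 1 of 4 in complex II, 4 of 8 in complex III, 7 of 13 in complex IV and 7 of 15 in complex V. This direction follows the scaling: with library totals alone 12 members were higher and 23 lower, against 15.5% and 42.2% of all genes, and 58 of 90 nuclear members had a negative change. With limma on log2(TPM + 1) 11 were higher and 37 lower. The members' median lay above that of all genes by 0.10 to 0.13 under these scalings. A change of scaling can hardly move that difference.

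The largest nuclear rise with each bacterium was that of Ndufv3, an accessory subunit of the flavoprotein arm of complex I (chromosome 17, 31520115 to 31531326, plus strand). It had 37.1, 34.8 and 41.0 scaled CPM in untreated libraries, 60.4, 56.1 and 59.2 with Fusobacterium, 50.7, 50.8 and 60.3 with Helicobacter and 66.2, 49.8 and 55.8 with Neisseria. All 9 treated libraries were above all untreated ones, and the 3 treated groups overlapped each other. The rise was 0.64 ± 0.09 with Fusobacterium (edgeR adjusted p = 1.28e-05), 0.52 ± 0.09 with Helicobacter (adjusted p = 0.000857) and 0.61 ± 0.09 with Neisseria (adjusted p = 3.58e-05). These comparisons share the untreated libraries, and the call held in all 3 under each of the 22 alternatives.

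Among the members that passed, the largest fall with each bacterium was that of Ndufaf4, an assembly factor of complex I (chromosome 4, 24898083 to 24905001, plus strand). Its levels were 49.6, 49.6 and 54.0 scaled CPM untreated, 29.6, 31.2 and 27.1 with Fusobacterium, 42.1, 39.4 and 45.6 with Helicobacter and 35.9, 34.2 and 33.2 with Neisseria. The 4 groups did not overlap on this scale, with untreated highest, then Helicobacter, Neisseria and Fusobacterium. In TPM the Fusobacterium libraries (18.2 to 20.8) and the Neisseria libraries (19.3 to 19.7) did overlap. It fell by 0.80 ± 0.07 with Fusobacterium (edgeR adjusted p = 1.04e-09), by 0.27 ± 0.07 with Helicobacter (adjusted p = 0.00699) and by 0.57 ± 0.07 with Neisseria (adjusted p = 3.72e-07), and each call held under all 22 alternatives. Among the bacteria it was lower with Fusobacterium than with Helicobacter (-0.53 ± 0.07) and Neisseria (-0.23 ± 0.07), although the mean TPM of the last pair was 19.5 in both.

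Ndufaf1, another assembly factor of complex I (chromosome 2, 119655446 to 119662827, minus strand), was set apart by the Fusobacterium libraries. It had 16.7, 17.7 and 19.6 scaled CPM untreated, 11.4, 10.97 and 8.74 with Fusobacterium, 18.9, 16.6 and 20.1 with Helicobacter and 18.6, 17.8 and 17.3 with Neisseria. The Fusobacterium libraries were below all 9 others, and the other groups overlapped. It fell by 0.79 ± 0.11 against untreated organoids (edgeR adjusted p = 8.81e-07) and was lower than with Helicobacter by 0.83 ± 0.11 (adjusted p = 4.19e-07) and than with Neisseria by 0.79 ± 0.11 (adjusted p = 1.04e-06). Its change was 0.04 ± 0.10 with Helicobacter and -0.01 ± 0.10 with Neisseria.

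The promoters of these 3 genes are shown because they had the largest nuclear changes. They are RefSeq sequences on GRCm38.p6 that run from 250 bases before to 50 after the gene's start, and capitals mark motif matches. The match in Ndufv3 is ACGTG, a form of the core letters of hypoxia-inducible factors (chr17:31519865-31520164, plus strand). That in Ndufaf4 is GCGCATGCG of nuclear respiratory factor 1, on both strands (chr4:24897833-24898132, plus strand). That in Ndufaf1 is CCGGAAG of the ETS family (chr2:119662785-119663084, minus strand). Other forms of these motifs were not searched and are not marked.
Ndufv3: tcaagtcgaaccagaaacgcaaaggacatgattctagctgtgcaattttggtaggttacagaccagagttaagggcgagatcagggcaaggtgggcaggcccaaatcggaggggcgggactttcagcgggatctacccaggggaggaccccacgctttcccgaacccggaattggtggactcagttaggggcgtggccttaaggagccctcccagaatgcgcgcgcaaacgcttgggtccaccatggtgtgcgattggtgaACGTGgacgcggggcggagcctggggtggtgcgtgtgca
Ndufaf4: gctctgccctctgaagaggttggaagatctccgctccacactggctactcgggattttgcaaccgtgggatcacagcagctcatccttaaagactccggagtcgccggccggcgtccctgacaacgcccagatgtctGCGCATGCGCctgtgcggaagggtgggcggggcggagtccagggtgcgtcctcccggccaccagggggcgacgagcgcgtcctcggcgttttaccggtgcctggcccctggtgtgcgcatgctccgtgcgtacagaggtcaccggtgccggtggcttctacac
Ndufaf1: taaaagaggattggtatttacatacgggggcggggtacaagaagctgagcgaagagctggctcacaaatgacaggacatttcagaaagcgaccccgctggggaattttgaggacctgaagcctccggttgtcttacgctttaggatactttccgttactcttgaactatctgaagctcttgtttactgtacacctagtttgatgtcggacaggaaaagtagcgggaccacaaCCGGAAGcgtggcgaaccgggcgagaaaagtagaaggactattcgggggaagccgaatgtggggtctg

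Of the 90 nuclear members, 78 had such a promoter sequence, and the first one listed for each gene was used. Some lie away from the gene start that goes with the counts, by 3643 bases for Atp5d, 1520 for Sdhaf1 and 1305 for Atp5g2. GCGCATGCG was in 12.8% of these, against 3.70% of the 10153 promoters of tested genes and 1.81% of all 27025, reading both strands. CCGGAAG was in 25.6%, 18.2% and 9.12%, and AAGATGGC, the letters of YY1, in 12.8%, 4.69% and 2.88%. ACGTG was in 24.4%, 25.7% and 19.7%, CACGTG, the letters of MYC that contain it, in 7.69%, 10.04% and 7.24%, and TGATGNAA, the letters of ATF4, in 0%, 2.21% and 4.06%. Only these letters were counted, so the shares leave out other forms of each motif. A match describes letters and is not a bound site.

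Of the other factors, Atp5s, which is associated with ATP synthase, fell with Fusobacterium by 0.48 ± 0.14 to 5.58 to 5.83 scaled CPM from 6.52 to 9.18, and Ndufaf8 by 0.42 ± 0.13. Ndufaf8 was also lower than with Helicobacter (-0.61 ± 0.13) and Neisseria (-0.60 ± 0.13). Ndufaf6 was higher with Fusobacterium than with Helicobacter by 0.49 ± 0.20, a call that was lost without any 1 of the Fusobacterium libraries and without Helicobacter replicate 1 or 3. Ndufaf2, Ndufaf3, Ndufaf5 and Ndufaf7 passed in no comparison with untreated organoids.

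Among nuclear complex I subunits, the rises with Neisseria were led after Ndufv3 by Ndufs4, a subunit near the NADH-binding end. It had 64.2, 64.4 and 76.2 scaled CPM untreated, 76.9, 72.0 and 69.1 with Fusobacterium, 82.7, 73.3 and 82.9 with Helicobacter and 99.7, 90.9 and 82.9 with Neisseria. The Neisseria libraries were above the untreated ones and the Helicobacter libraries overlapped them. It rose by 0.42 ± 0.08 with Neisseria (edgeR adjusted p = 0.000126), and by 0.25 with library totals alone (adjusted p = 0.00442). Ndufc2, an accessory membrane subunit, rose by 0.40 ± 0.07 with Neisseria and 0.25 ± 0.07 with Helicobacter, and Ndufb4 by 0.23 ± 0.06 with Helicobacter. The Helicobacter rises of Ndufs4, Ndufc2 and Ndufb4 lost the call with library totals alone and without untreated replicate 1. Ndufa7 passed with none of the bacteria (-0.04 ± 0.08, 0.21 ± 0.08 and 0.17 ± 0.08).

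**Figure D4:**
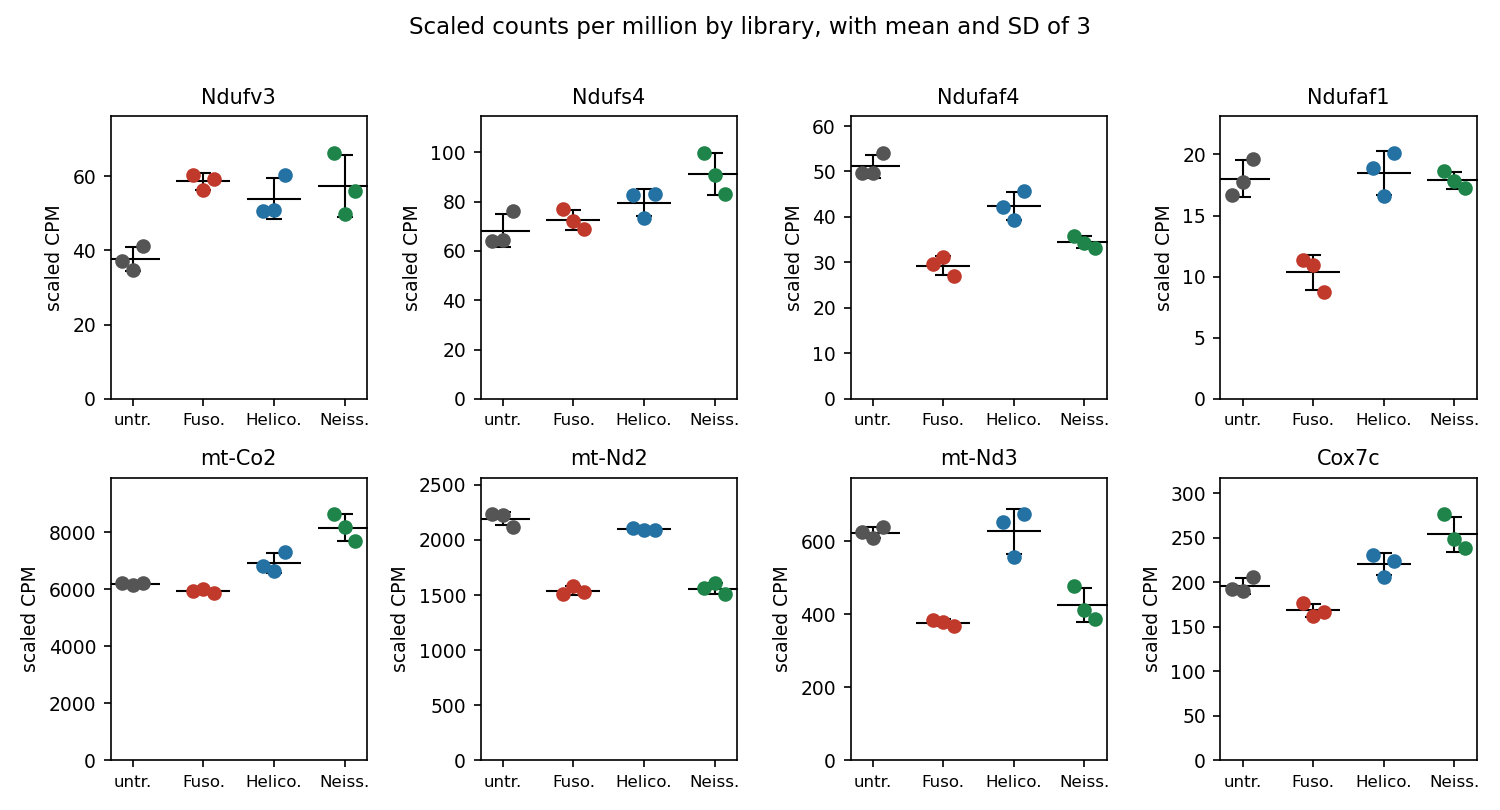
Scaled CPM (vertical axis, from 0) of 8 members in each of the 12 libraries by group (horizontal axis: untreated, Fusobacterium, Helicobacter, Neisseria). Points are libraries and bars the mean ± SD of 3: Ndufv3 is above the untreated range in all treated groups, Ndufaf4 below it in all of them, Ndufaf1 low with Fusobacterium, and mt-Co2 high while mt-Nd2 and mt-Nd3 are low with Neisseria.

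Complex II, the succinate dehydrogenase, is encoded by the nucleus alone. Its flavoprotein Sdha fell with Fusobacterium from 237.5 to 248.9 scaled CPM down to 214 to 220.0, without overlap (-0.17 ± 0.04, edgeR adjusted p = 0.00073). With Helicobacter and Neisseria Sdha did not pass (-0.06 ± 0.04 and -0.02 ± 0.04), although by library totals alone it was lower, at -0.12 and -0.18. The iron-sulfur subunit Sdhb rose with Neisseria by 0.28 ± 0.07 (adjusted p = 0.0018), from 62.8 to 75.2 scaled CPM up to 77.7 to 85.2, a call that was lost with library totals alone (0.12, adjusted p = 0.1435). The membrane anchor Sdhd fell with Neisseria by 0.16 ± 0.05 (adjusted p = 0.00696), which was lost without untreated replicate 3, and the other anchor Sdhc passed with none, although by library totals alone it was lower with Neisseria by 0.21. Of its 4 assembly factors, Sdhaf1 rose with Neisseria by 0.36 ± 0.09, to 21.7 to 25.7 scaled CPM from 16.8 to 19.9, and was lower with Helicobacter than with Neisseria by 0.38 ± 0.09. The rise against untreated organoids did not pass with library totals alone (adjusted p = 0.0717), and Sdhaf2, Sdhaf3 and Sdhaf4 did not pass against untreated organoids. Sdhaf2 was higher with Helicobacter than with Neisseria by 0.21 ± 0.08 on the log2 scale (edgeR adjusted p = 0.0306), with overlapping libraries, and lower with Fusobacterium than with Helicobacter (-0.27 ± 0.08, adjusted p = 0.00386).

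In complex III, Uqcrq, a small subunit, had 88.9, 84.1 and 102.6 scaled CPM untreated, 98.4, 94.1 and 91.6 with Fusobacterium, 116, 96.7 and 116 with Helicobacter and 129, 120 and 114 with Neisseria. The Neisseria libraries were above the untreated ones. It rose by 0.39 ± 0.08 with Neisseria (edgeR adjusted p = 0.000427) and by 0.26 ± 0.08 with Helicobacter (adjusted p = 0.0281), the latter not with library totals alone. Uqcrh, the most abundant nuclear subunit of the complex, passed with none (-0.02 ± 0.07, 0.01 ± 0.07 and -0.03 ± 0.07), although by library totals alone it was lower with Neisseria by 0.20.

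Several complex IV subunits have tissue forms. The common forms were abundant and the other forms were not: Cox4i2, Cox7b2 and Cox8c had 0 counts in all 12 libraries, Cox8b had 3 and Cox6a2 15. Cox7a1, the muscle form just inside the 1 TPM limit at 1.73 TPM, and Cox6b2, a testis form at 10.8 TPM, passed in no comparison. Ndufa4l2, a form of Ndufa4 induced by low oxygen, lay outside the limit at 0.443 TPM, had at most 9 counts in a library and was not tested. The counts of Ndufa4l2 summed to 6 over the untreated libraries, 6 with Fusobacterium, 18 with Helicobacter and 14 with Neisseria. Its common form Ndufa4 stood at 396 TPM and passed with none of the bacteria.

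Of the common forms, Cox6a1 rose with each bacterium, by 0.13 ± 0.05, 0.21 ± 0.05 and 0.28 ± 0.05 with Fusobacterium, Helicobacter and Neisseria. Cox4i1 rose with Helicobacter (0.16 ± 0.05) and Neisseria (0.24 ± 0.05), as did Cox8a (0.18 ± 0.06 and 0.25 ± 0.06). By library totals alone the Neisseria changes were 0.11, 0.07 and 0.09 for Cox6a1, Cox4i1 and Cox8a, and none of them passed. The Helicobacter rises of Cox4i1 and Cox8a were lost in the same way, and without Helicobacter replicate 3 or untreated replicate 1 or 2. Cox7a2l, which links complexes III and IV into supercomplexes, rose by 0.31 ± 0.06 with Neisseria and by 0.18 ± 0.06 with Helicobacter, the first also with library totals alone (0.14, adjusted p = 0.0296) and the second lost under 14 of 22 alternatives. Cox7a2 passed with none, and its change of -0.25 ± 0.11 with Fusobacterium (adjusted p = 0.0582) passed under 10 of 22 alternatives. Cox6b1 passed with none, although with limma on TPM Cox6b1 was lower with Neisseria by 0.18 (adjusted p = 0.013).

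Cox7c, a small nuclear subunit of complex IV, had the largest difference of any subunit between Fusobacterium and Neisseria. It had 192, 190 and 206 scaled CPM untreated, 177, 162 and 167 with Fusobacterium, 230, 206 and 224 with Helicobacter and 276, 248 and 238 with Neisseria. No group overlapped another, although the lowest Helicobacter and the highest untreated library were both at 206. It was lower with Fusobacterium than with Neisseria by 0.59 ± 0.06 (edgeR adjusted p = 3.07e-09), and by 0.42 with library totals alone.

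In complex V, the 3 genes Atp5g1, Atp5g2 and Atp5g3 encode the same mature subunit c of the membrane ring with different import signals, and their values differed. Atp5g3, the most abundant at 778 TPM, had 268, 261 and 275 scaled CPM untreated, 231, 219 and 215 with Fusobacterium, 275, 247 and 272 with Helicobacter and 255, 227 and 242 with Neisseria. It fell by 0.27 ± 0.05 with Fusobacterium (edgeR adjusted p = 3.3e-05) and by 0.15 ± 0.05 with Neisseria (adjusted p = 0.0125). The latter was lost without Neisseria replicate 2 or untreated replicate 3.

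Atp5g2, at 192 TPM, had 137, 129 and 136 scaled CPM untreated, 122, 121 and 116 with Fusobacterium, 155, 147 and 160 with Helicobacter and 179, 161 and 152 with Neisseria, with no overlap between untreated and any treated group. It rose by 0.29 ± 0.05 with Neisseria and 0.20 ± 0.05 with Helicobacter, where Atp5g3 did not rise, and fell by 0.16 ± 0.05 with Fusobacterium. By library totals alone Atp5g2 was at 0.13 and Atp5g3 at -0.32 with Neisseria, and the difference between these genes was not tested. Limma on TPM left Atp5g2 at 0.08 with Neisseria, short of the threshold (adjusted p = 0.073), and its fall with Fusobacterium was lost without Fusobacterium replicate 3. Atp5g1 passed with none. Atp5b rose by 0.10 ± 0.04 with Neisseria (adjusted p = 0.0276), a call that turned to -0.06 with library totals alone and to -0.10 with limma on TPM (adjusted p = 0.00321), and that was lost without Neisseria replicate 1 or 2 or untreated replicate 1 or 2. Atp5l, a subunit of the membrane part, rose by 0.22 ± 0.06 with Helicobacter (adjusted p = 0.00625), which was lost without Helicobacter replicate 3.

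Set directly against each other, Fusobacterium gave lower levels than Helicobacter in 63 members and higher in 1, where 33.5% and 31.8% of all tested genes were lower and higher. Of the 36 nuclear complex I subunits 26 were lower, and of the 15 in complex V 11. Against Neisseria 61 members were lower with Fusobacterium and 1, Ndufb10, was higher, where 34.1% and 32.5% of all tested genes were. Ndufb10, an accessory subunit, was higher by 0.17 ± 0.07, with overlapping libraries, and lost the call without Fusobacterium replicate 1 or 3 or Neisseria replicate 2 or 3. Under library totals alone 40 members were lower than with Helicobacter and 1 higher (28.0% and 36.3% of all genes), and 23 were lower than with Neisseria and 14 higher (22.9% and 44.2% of all genes). Limma on TPM turned the direction against Neisseria, with 18 lower and 23 higher and a members' median of 0.03. The members' median lay 0.18 below that of all genes against Helicobacter and 0.20 below it against Neisseria, under TMM scaling and under library totals alone. A change between these scalings can hardly move such a difference.

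Helicobacter gave higher levels than Neisseria in 11 members and lower levels in 7, where 17.7% and 19% of all tested genes were higher and lower. Sdhaf1 apart, the 3 largest in each direction were mitochondrial. mt-Nd3, mt-Nd2 and mt-Cytb were higher with Helicobacter by 0.56 ± 0.08, 0.43 ± 0.04 and 0.35 ± 0.04, and mt-Co1 and mt-Co2 were lower by 0.34 ± 0.04 and 0.24 ± 0.04. The members' median was -0.0002. By library totals alone 27 were higher and 4 lower, with 31.2% and 12.5% of all genes. Without Helicobacter replicate 3 the counts were 6 higher and 17 lower, and they were 6 and 14 without Neisseria replicate 3. Without Helicobacter replicate 1 or Neisseria replicate 2 they were 6 higher, with 5 and 6 lower.

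**Figure D5:**
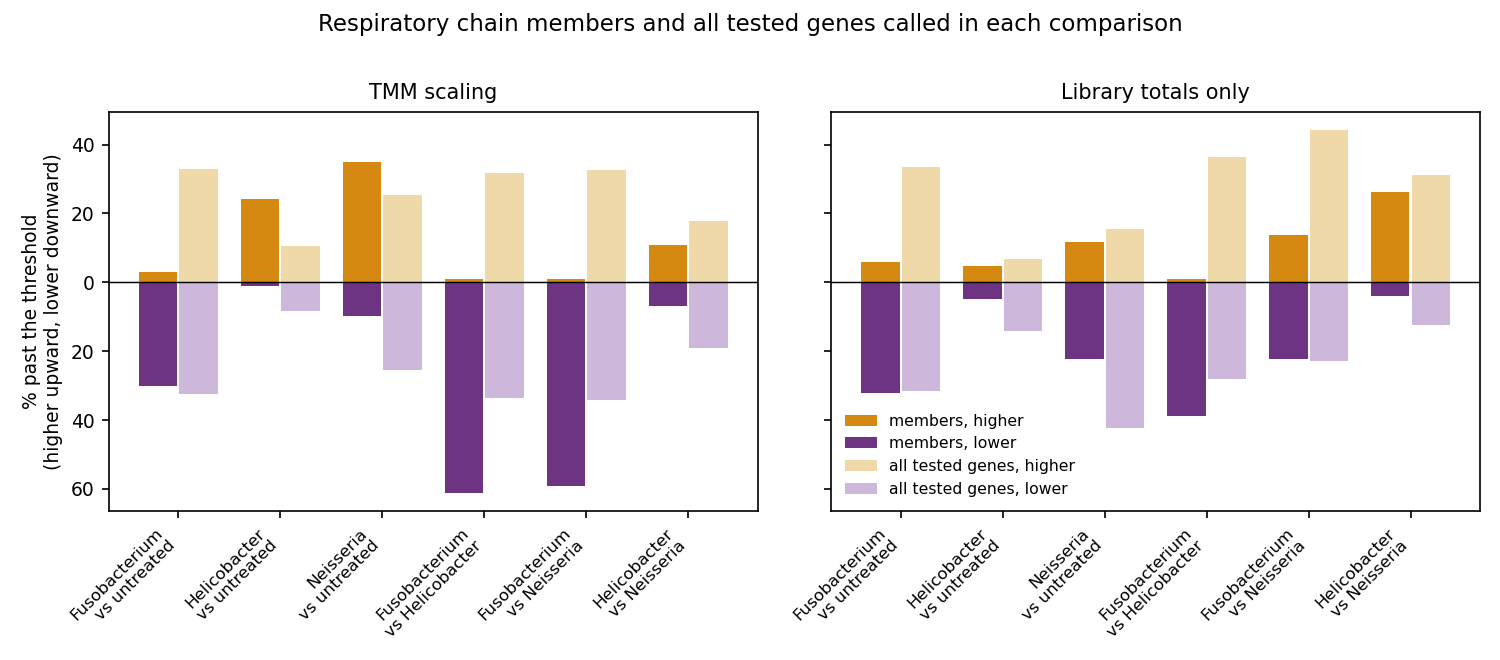
Percentage of the 103 members and of all 12805 tested genes past the adjusted p threshold of 0.05 (vertical axis, higher upward and lower downward) in each of the 6 comparisons (horizontal axis), with TMM scaling at left and library totals only at right. With TMM 61 members are lower with Fusobacterium than with Neisseria and with library totals alone 23 are, while for all genes the higher share grows from 32.5% to 44.2%.

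Genes that serve the chain but are no members of it are given by lists, whose counts stand against 32.8% higher and 32.4% lower of all tested genes with Fusobacterium, 10.5% and 8.36% with Helicobacter and 25.4% and 25.5% with Neisseria. Of 10 tested assembly factors of complex I outside the Ndufaf group, 0 rose with any of the bacteria, and the falls numbered 5 for Fusobacterium, 0 for Helicobacter and 4 for Neisseria. Tmem186, a part of the complex that assembles the membrane arm, fell by 0.94 ± 0.10 with Fusobacterium and by 0.66 ± 0.10 with Neisseria. Of 33 assembly factors of complexes III to V, 16 fell and 2 rose with Fusobacterium, 1 fell and 2 rose with Helicobacter, and Neisseria gave 7 falls and 5 rises. The falls were 48.5% of the list with Fusobacterium, against 32.4% of all genes, and 21.2% with Neisseria, against 25.5%. Coa7 and Sco2, both needed for complex IV, changed by -1.12 ± 0.10 and -1.64 ± 0.26 with Fusobacterium. Higd1a, a small protein of complex IV known to respond to low oxygen, rose by 0.91 ± 0.08 with Helicobacter (edgeR adjusted p = 6.2e-07) and by 1.48 ± 0.08 with Neisseria (adjusted p = 1.41e-10), larger than the change of any member. With Fusobacterium its level was 47.7 ± 0.65 TPM, also above the untreated 37.9 ± 1.05 TPM.

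Genes for copying, transcribing and processing mitochondrial DNA and RNA numbered 32 tested, of which 14 were lower and 2 higher with Fusobacterium, 5 and 0 with Helicobacter, and 12 and 3 with Neisseria. The lower ones were 43.8% of the list with Fusobacterium, where 32.4% of all genes were lower, and 37.5% with Neisseria, where 25.5% were. Polrmt, the mitochondrial RNA polymerase, fell by 0.79 ± 0.10 with Neisseria and by 0.32 ± 0.09 with Helicobacter, and Twnk, the helicase of mitochondrial DNA, by 0.99 ± 0.09 with Neisseria. Fastkd2 and Mterf3, which act on mitochondrial RNA and ribosomes, fell by 0.67 ± 0.07 and 0.82 ± 0.10 with Fusobacterium, and Ptcd1, a mitochondrial RNA-binding protein, rose by 0.68 ± 0.09.

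Of 15 regulators of mitochondrial gene expression, 4 rose and 8 fell with Fusobacterium, 0 and 3 with Helicobacter, and 5 and 4 with Neisseria. The falls were 53.3% of the list with Fusobacterium, against 32.4% of all genes, and 26.7% with Neisseria, near the 25.5% of all genes. Ppargc1a, a coactivator known for raising mitochondrial genes, rose by 2.68 ± 0.16 with Fusobacterium from 0.931 to 6.19 TPM (edgeR adjusted p = 6.27e-13) and by 1.46 ± 0.17 with Neisseria to 2.26 TPM. Its relative Pprc1 changed by -1.84 ± 0.09 with Fusobacterium, by -0.99 ± 0.08 with Neisseria and by -0.50 ± 0.08 with Helicobacter. Myc, with the smallest adjusted p of the list for Fusobacterium, changed by -1.61 ± 0.06 there (edgeR adjusted p = 3.04e-17). The changes of Myc were -0.75 ± 0.05 with Neisseria and -0.24 ± 0.05 with Helicobacter. Sirt1 changed by -1.36 ± 0.09 with Fusobacterium. Hif1a, a hypoxia-inducible factor, had the smallest adjusted p of the list for Helicobacter, with a change of -0.38 ± 0.05 (edgeR adjusted p = 3.45e-06). It was higher with Fusobacterium than with Helicobacter by 1.08 ± 0.05 and than with Neisseria by 0.89 ± 0.05. Its part in the changes of Higd1a was not tested. Of 21 genes of ubiquinone and cytochrome c, 2 rose and 6 fell with Fusobacterium, 1 and 1 with Helicobacter and 2 and 5 with Neisseria, where 28.6% of the list with Fusobacterium and 23.8% with Neisseria fell, near the shares of all genes. Cycs, cytochrome c itself, rose with Neisseria by 0.25 ± 0.06, although its TPM was 113.8 ± 3.63 against 110.2 ± 6.50 untreated. Of 17 citric acid cycle genes, 8 rose and 7 fell with Fusobacterium, 2 and 1 with Helicobacter and 6 and 4 with Neisseria. The rises were 47.1% and the falls 41.2% of the list with Fusobacterium, and 35.3% and 23.5% with Neisseria. In that last group Dld, a shared subunit of the dehydrogenase complexes, rose by 0.49 ± 0.05.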

How the data were processed

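The table holds, per the file headers, gene counts that the authors left unnormalized. Beside them, per the file headers, stand the authors' TPM values, which are scaled for gene length. A further 24 deposited columns of RPKM and CPM, treated as a score because the deposited CPM columns sum to more than CPM can, were not used here. Per the submitters' processing notes the build was GRCm38. Which aligner and counter were run, and whether with strand, is not given in the sources used here.

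The counts of all 12 libraries were fitted with edgeR 4.0.16 in R 4.3.3 (robust quasi-likelihood, 1 coefficient per group, no replicate block) after its default filter on low counts, which left 12805 genes with 99.96% of counts. TMM scaling was used, P values were adjusted by Benjamini-Hochberg over these genes with a threshold of 0.05, and tests were two-sided. Standard errors are the size of the log2 fold change divided by the root of the F value. The fit was also run on simulated counts in which few genes changed. They held no shift of scaling between groups, so that run does not bear on the scaling. The common coefficient of biological variation was 5.71%, and total counts of 16955155 to 23236260 set the precision. Replicate pairs differed with a chi-square of 2.26 to 11.02 for each degree of freedom.

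Alternatives were DESeq2 1.42.0, limma 3.58.1 on log2(TPM + 1) and log2(TPM + 0.1), other scalings, no filter on low counts, only the 6 libraries compared, the replicate number as a block, each library left out in turn, and, chosen after seeing the data, only the 10 libraries with the mark L1 in their column names. The libraries without that mark were Helicobacter replicate 3 and untreated replicate 3. The members and lists were chosen with earlier results of these data known. Named are the 6 largest rises and falls per comparison with untreated organoids, 3 per comparison of bacteria, all mitochondrial members, alternative forms of a subunit, complex II and the most abundant nuclear member of each complex; Ndufaf2, Ndufaf3, Ndufaf5, Ndufaf7 and the changes of some members outside their own comparison are named besides, some of them after their values were seen. From the other lists up to 4 genes with the smallest adjusted p were eligible. All 103 members were found by identifier and name in GENCODE M21, and 51 overlap another annotated gene. Their counts, and those of genes with near-identical pseudogene copies, are uncertain to that extent.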

Additional observations from a re-analysis of the deposited data

How the results depend on the processing

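The members called lower with Fusobacterium than with Helicobacter or Neisseria remained the larger direction under every alternative except limma on TPM for Neisseria, and counts against untreated organoids varied. Counts are given as higher and lower members. Library totals alone gave 6 higher against untreated organoids with Fusobacterium, 5 and 5 with Helicobacter and 12 and 23 with Neisseria, and 40 lower for Fusobacterium against Helicobacter, 14 and 23 for Fusobacterium against Neisseria and 27 and 4 for Helicobacter against Neisseria. Limma on log2(TPM + 1) and on log2(TPM + 0.1) gave the same counts, 10 higher with Fusobacterium, 2 and 8 with Helicobacter, 11 and 37 with Neisseria, and 6 and 29, 23 and 18 and 35 and 4 in the comparisons between bacteria. With the 10 L1 libraries, an alternative chosen after seeing the data, there were 9 higher with Fusobacterium, 10 and 4 with Helicobacter, and 7 and 20 for Helicobacter against Neisseria. With only the 6 libraries compared there were 6 and 47 with Fusobacterium, 13 higher with Helicobacter and 6 higher for Helicobacter against Neisseria. DESeq2 gave 3 lower with Helicobacter and 7 higher for Helicobacter against Neisseria, and no filter on low counts gave 0 higher for Fusobacterium against Helicobacter. The mitochondrial share was 86.01%, 85.33%, 85.65% and 86.37% from TPM in untreated, Fusobacterium, Helicobacter and Neisseria libraries, and 83.78% and 84.79% without assembly factors with Fusobacterium and Neisseria. Over all 103 members the ratio of mean TPM had the opposite sign to the fit in 44 members (8 of them called) for Neisseria against untreated organoids, in 44 (18 called) for Fusobacterium against Neisseria and in 25 (4 called) for Fusobacterium against Helicobacter. Among the named members the signs that turned where either setting made a call were, against untreated organoids with Neisseria, mt-Nd1 (-0.16 by library totals, -0.20 with limma on TPM), Atp5b (-0.062, -0.10) and Cox6b1 (-0.18 with limma), and, for Fusobacterium against Neisseria, mt-Nd1 (0.018 with limma), mt-Nd2 (0.16, 0.22) and mt-Nd4 (0.11, 0.17); the cause was not tested.

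Leaving out 1 library at a time gave ranges for members higher and lower of 1 to 8 and 23 to 39 with Fusobacterium, 5 to 42 and 1 to 4 with Helicobacter and 28 to 45 and 7 to 12 with Neisseria. Between bacteria the ranges were 0 to 1 and 46 to 76 for Fusobacterium against Helicobacter, 0 to 1 and 47 to 69 for Fusobacterium against Neisseria, and 6 to 16 and 5 to 17 for Helicobacter against Neisseria, and 66 to 86 members differed among the 4 groups. The replicate numbers share only a number: deviations of same-numbered libraries correlated at -0.08 to 0.08 over 18 pairs and those of other libraries at -0.11 to 0.09 over 36. A fit blocked on that number called 3 and 35 members with Fusobacterium, 27 and 3 with Helicobacter, 39 and 12 with Neisseria, and 78 among the 4 groups. The members' median change with Neisseria, 0.11, is smaller than the move of the all-gene median from -0.02 to -0.18 that library totals alone bring, so the direction of small changes there depends on the scaling.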
